A study of Mus musculus with 10 samples.

Results

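The clustered replication-dependent histone genes are the small genes named Hist1h to Hist4h, which lie in runs on the mouse chromosomes and code for the histones of new chromatin. They were chosen by name alone, as the protein-coding genes whose symbols carry these names in the RefSeq annotation of mouse genome GRCm38, and 67 of the 46152 genes counted carry one. Hist3h2a had 0 counts in all 10 libraries and was dropped, which left 66 members. The members hold 54 genes of the Hist1 cluster on chromosome 13, 10 of the Hist2 cluster on chromosome 3, Hist3h2ba on chromosome 11 and Hist4h4 on chromosome 6. By class they are 6 H1, 17 H2A, 18 H2B, 12 H3 and 13 H4 genes. Microglia, the resident macrophages of the brain, were taken from C57BL/6J mice aged 8 to 12 weeks by a Percoll gradient and magnetic selection for the surface protein CD11b. For 8 days, 5 mice had received GW2580, a blocker of the CSF1R kinase that microglia depend on, by gavage at 80 mg/kg/d, and 5 mice had received the vehicle alone (0.1% Tween 80 and 0.5% hydroxymethyl propyl-cellulose). Each group held 2 males and 3 females, every mouse gave 1 library, and CD11b is also carried by other myeloid cells. Libraries are named by group and replicate number.

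Cells that copy their DNA make histones in bulk, and the clustered genes are switched on together as S phase begins. Pairs of H2A, H2B, H3 and H4 proteins form the core that DNA winds around, and H1 closes the linker between cores. The messengers of these genes are unusual in that most carry no introns and end in a short hairpin, bound by the stem-loop binding protein Slbp, in place of the poly(A) tail found on other messengers, while histones that are made outside S phase come from separate genes with ordinary poly(A) tails. The cDNA kit used here primes on poly(A) tails, so the counts describe those histone transcripts that the kit copied. In whole-population RNA, fewer cells of a kind and less RNA per cell cannot be told apart.

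The hairpin is shown for the members on which the results turn, because it defines the family's messengers. It was looked for as 6 bases that begin with GG and end in T, a loop of 4 bases, and 6 bases that pair with the first 6 without mismatch, in the transcripts of GENCODE release M21 (GRCm38). It was found in 45 of the 66 members, always inside the exon that was counted. In 42 of them the counted exon ended 4 to 8 bases after the hairpin, and in 3 the counted exons held a further 214 to 1861 bases downstream of it. The hairpin is in capitals, with 5 bases on each side in lower case, read 5′ to 3′ on the gene's strand, and the coordinates are those of the 16 capitals.
Hist1h1c, chr13:23739512-23739527, plus strand: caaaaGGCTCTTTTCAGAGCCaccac
Hist1h1e, chr13:23621782-23621797, minus strand: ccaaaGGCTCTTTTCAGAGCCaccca
Hist2h2aa2, chr3:96239784-96239799, minus strand: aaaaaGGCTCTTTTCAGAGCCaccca
Hist2h2aa1, chr3:96246032-96246047, plus strand: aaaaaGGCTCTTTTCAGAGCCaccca
Hist3h2ba, chr11:58949349-58949364, plus strand: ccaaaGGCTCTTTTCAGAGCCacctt
Hist2h3c1, chr3:96247327-96247342, plus strand: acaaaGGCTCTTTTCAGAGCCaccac
Hist1h2bg, chr13:23571843-23571858, plus strand: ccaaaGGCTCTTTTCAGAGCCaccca
Hist1h3e, chr13:23561903-23561918, minus strand: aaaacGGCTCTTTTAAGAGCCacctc
Hist1h4d, chr13:23581950-23581965, plus strand: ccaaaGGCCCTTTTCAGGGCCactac
Hist4h4, chr6:136803998-136804013, minus strand: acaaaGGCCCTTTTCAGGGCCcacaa
Hist2h4, chr3:96262939-96262954, minus strand: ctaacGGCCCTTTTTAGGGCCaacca
The form of Hist1h1c was carried by 25 members of the H1, H2A, H2B and H3 classes. The form of Hist1h4d was carried by 7 members, all of the H4 class. The form of Hist1h3e was carried by 6 members. No hairpin of this description was found in the GENCODE transcripts of the other 21 members, among them Hist1h2bc, Hist2h2be and Hist1h1b. Several of these transcripts, such as those of Hist1h2bl, Hist1h2ai and Hist1h3h, were shorter than the counted exon. A hairpin past their end could not be found, so these 21 members are not shown to lack one.

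Of the members, 24 stand as 12 head-to-head pairs of 1 H2A and 1 H2B gene, whose starts lie 163 to 280 bases apart on opposite strands. The whole interval between the starts is shown for 2 pairs, for which the ratio of the partners is given library by library below. The sequences are those of RefSeq (GRCm38.p6), read 5′ to 3′ on the plus strand toward the H2B gene, with CCAAT boxes, the TATA sequence TATAAA and the octamer ATTTGCAT in capitals on either strand.
Hist1h2ac and Hist1h2bc, chr13:23683960-23684198: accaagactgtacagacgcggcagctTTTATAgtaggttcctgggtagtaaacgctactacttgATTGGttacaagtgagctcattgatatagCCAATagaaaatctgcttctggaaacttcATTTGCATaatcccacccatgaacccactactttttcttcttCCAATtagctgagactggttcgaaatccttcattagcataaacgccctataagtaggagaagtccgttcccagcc
Hist1h2ae and Hist1h2bg, chr13:23571221-23571399: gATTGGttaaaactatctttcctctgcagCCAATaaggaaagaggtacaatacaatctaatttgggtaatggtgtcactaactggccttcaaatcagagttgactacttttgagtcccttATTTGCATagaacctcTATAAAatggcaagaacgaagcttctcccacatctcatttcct
Each of these intervals holds 1 octamer. Intervals could be read for 10 of the 12 pairs, of which 10 held CCAAT, 4 held TATAAA and 3 held the octamer. Promoters of 300 bases were held for 61 members in 62 entries, and were searched on both strands for the octamer, for CCAAT, for the TATA sequence and for AAACACA, a box of H1 promoters. CCAAT lay in 85.5% of the member promoters against 37.4% of all 32851 promoters, and TATAAA in 56.5% against 13.6%. The octamer was present in 35.3% of the H2A and 41.2% of the H2B promoters, in 0% of the H1, H3 and H4 promoters and in 1.74% of all promoters. Head-to-head partners share their interval, so 1 octamer, as for Hist1h2ae and Hist1h2bg, can count in both the H2A and the H2B share. AAACACA was present in 5 of 6 H1 promoters (83.3%) against 7.18% of all promoters. The promoter of Hist1h1e, which encodes one of the most abundant linker histones, is shown with its 150 bases before the start to give these letters in place, with the same motifs and AAACACA in capitals.
Hist1h1e, chr13:23622559-23622708, minus strand: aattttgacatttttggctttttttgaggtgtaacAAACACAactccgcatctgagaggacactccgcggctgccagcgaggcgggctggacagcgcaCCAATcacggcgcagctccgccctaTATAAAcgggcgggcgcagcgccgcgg

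Between 12550418 and 26079343 fragments per library were assigned to genes, and the members together received 51809 of them over the 10 libraries. Values are counts per 1000000 assigned fragments (CPM), with library sizes adjusted by edgeR's TMM factors, which set the median gene near no change. With library sizes alone, the median log2 fold change of all genes was 0.23. The summed level of 8 microglial markers, from Tmem119 to Csf1r, was 16689.5 to 67225 CPM in the 10 libraries. Oligodendrocyte markers summed to 15108 CPM in Vehicle 2 and 3147 CPM in Vehicle 5, against 45.6 to 1387 CPM in the other libraries. Markers of monocytes and granulocytes, which also carry CD11b, summed to 13313 CPM in Vehicle 1, 272 CPM in Vehicle 5, 157 and 220.1 CPM in GW2580 3 and 4, and 3630.0 and 3597 CPM in GW2580 2 and 5, and erythroid markers to 1696 CPM in Vehicle 5. The part of these myeloid and erythroid cells in the results was not tested. Over 7577 abundant genes other than the members, Vehicle 5, GW2580 5 and, by a smaller margin, GW2580 2 each lay nearer the opposite group. On the first principal component, which held 47.1% of the variance, Vehicle 1 to 4 lay at 35.0 to 40.5 and Vehicle 5 at -78.0, while GW2580 1, 3 and 4 lay at -46.2 to -37.7, GW2580 2 at 5.21 and GW2580 5 at 45.8. Results are therefore given with all libraries and also without Vehicle 5 and GW2580 5, which lay beyond the range of the other group, a choice made after their values were seen, which makes p-values from the remaining 8 libraries too small to serve as tests. They are given as a description only.

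The members were mostly low in these libraries. Because the kit primes on poly(A) tails, the levels and their order describe the transcripts copied and not the histone messenger held by the cells. Their mean level over the 10 libraries had a median of 1.06 CPM, 7 members exceeded 10 CPM, and 46 had a count in every library. The lowest, Hist1h2ap and Hist1h2br, had 5 counts in all. Per kilobase of counted exon, the H2B gene Hist1h2bc was highest with vehicle at 159 ± 51.7 CPM per kb (SD, n = 5). The linker histone genes Hist1h1c and Hist1h1e followed at 88.6 ± 44.2 and 59.8 ± 30.5 CPM per kb, within their spread of each other. Hist1h4d, Hist1h2bg and Hist1h2ae came next at 30.6 ± 14.8, 26.7 ± 8.30 and 24.7 ± 11.2 CPM per kb, which also lay within their spread of each other. In CPM, H2B genes held 36.9% of the summed member level, H1 genes 31.3%, H3 genes 11.5%, H2A genes 10.6% and H4 genes 9.73%, and Hist1h2bc alone held 24.8%.

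The summed level of the 66 members was 446, 402, 446, 365 and 387 CPM in the vehicle libraries and 141, 289, 282, 101 and 471 CPM in the GW2580 libraries. The 5 vehicle libraries lay close together, the GW2580 libraries were spread widely, and GW2580 5 was higher than every vehicle library. The means were 409 ± 35.98 CPM under vehicle and 257 ± 146 CPM under GW2580 (SD, n = 5 each), a difference of -0.88 ± 0.40 on the log2 scale (mean ± SE). No p is given for a sum over chosen genes. Without Hist1h2bc the difference was -0.57, and the mean log2 level of the members, which weights each gene equally, was lower by 0.58. By class the log2 difference of the sums was -1.28 ± 0.41 for H2B, -0.78 ± 0.57 for H2A, -0.68 ± 0.48 for H1, -0.48 ± 0.50 for H3 and -0.25 ± 0.52 for H4. The differences for H3 and H4 were smaller than their errors. Without Hist1h2bc, which held most of the H2B level, the other 17 H2B genes summed to 45.3 ± 6.59 CPM under vehicle and 35.4 ± 12.8 CPM under GW2580, a difference of -0.41 ± 0.24, so the place of H2B at the head of this order rested on that gene. The Hist1 cluster, which held 88.2% of the member level, summed to 362 ± 36.8 CPM under vehicle and 225 ± 136 CPM under GW2580. Its difference was -0.92 ± 0.44. In the Hist2 cluster the sum was 39.1 ± 6.92 CPM under vehicle and 22.3 ± 8.71 CPM under GW2580, with a difference of -0.87 ± 0.27. The 42 members whose counted exon ended soon after the hairpin summed to 232 ± 46.6 CPM under vehicle and 175 ± 96.5 CPM under GW2580, a difference of -0.58 ± 0.42. The 21 members in which no hairpin was found, which include Hist1h2bc, summed to 154 ± 39.2 CPM under vehicle and 61.8 ± 43.1 CPM under GW2580, a difference of -1.54 ± 0.46. The other 20 summed to 31.0 ± 2.09 CPM under vehicle and 19.9 ± 6.30 CPM under GW2580. Their difference of -0.69 ± 0.20 lay within the error of that of the 42 members above. Because some transcripts searched were shorter than the counted exon, the group of 21 may include members with a hairpin.

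**Figure D1:**
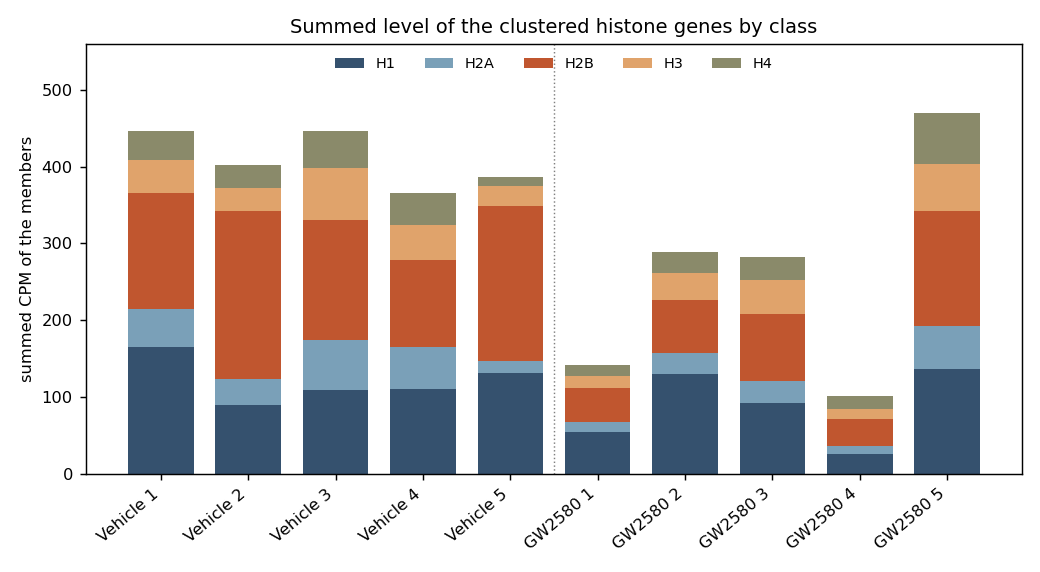
Summed CPM of the 66 members in each library, stacked by histone class (H1 at the base to H4 at the top). The vehicle libraries reached 365 to 446 CPM, GW2580 1 to 4 reached 101 to 289 CPM and GW2580 5 reached 471 CPM.

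Of the 66 members, 38 passed the filter of over 1 CPM in at least 3 libraries and entered the test of GW2580 against vehicle, and 31 of them were lower and 7 higher with GW2580. Taking more than a 2-fold difference with an unadjusted p below 0.05 in edgeR's quasi-likelihood test as thresholds, 5 were lower, where 6.7% of all 28419 genes tested were, and 0 were higher, where 4.01% were. The 5 lower members are Hist2h2aa2, Hist2h2aa1, Hist1h2bc, Hist3h2ba and Hist2h3c1, which make up 13.2% of the members tested. Before TMM scaling, Hist2h3c1 exceeded 1 CPM in Vehicle 1, Vehicle 3 and Vehicle 5 only. It was therefore tested only through the group in which it was higher, and its place in this count follows in part from the filter. A gene is said below to have fallen or risen where it passed these unadjusted thresholds. The median log2 fold change was -0.57 over the members tested and -0.03 over all genes tested. At an unadjusted p under 0.05 and any fold change, the same 5 members passed, where 14.7% of all genes did. None passed a Benjamini-Hochberg adjusted p of 0.05, nor did any gene of the table (0.0% of all genes). The smallest adjusted p of a member was 0.28. DESeq2 put 7 members lower (7.27% of all genes) and 0 higher (4.1%), with a smallest adjusted p of 0.0582, and limma-trend put 8 lower, where 5.48% of all genes were. Fitted on every gene with a count, all 66 members could be tested: 59 were lower and 7 higher, with a median of -0.60 against -0.12 over all genes, and 8 were lower past the thresholds where 7.08% of all genes were, and 0 higher where 3.82% were. The 3 that joined were Hist1h2ah, Hist1h2bk and Hist2h3c2, each below 1.3 CPM on average. The 28 members that failed the filter were 1 H1, 8 H2A, 8 H2B, 5 H3 and 6 H4 genes, with mean levels of at most 1.24 CPM, and since a gene could pass it through either group alone, the counts describe the members tested and not the whole family.

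**Figure D2:**
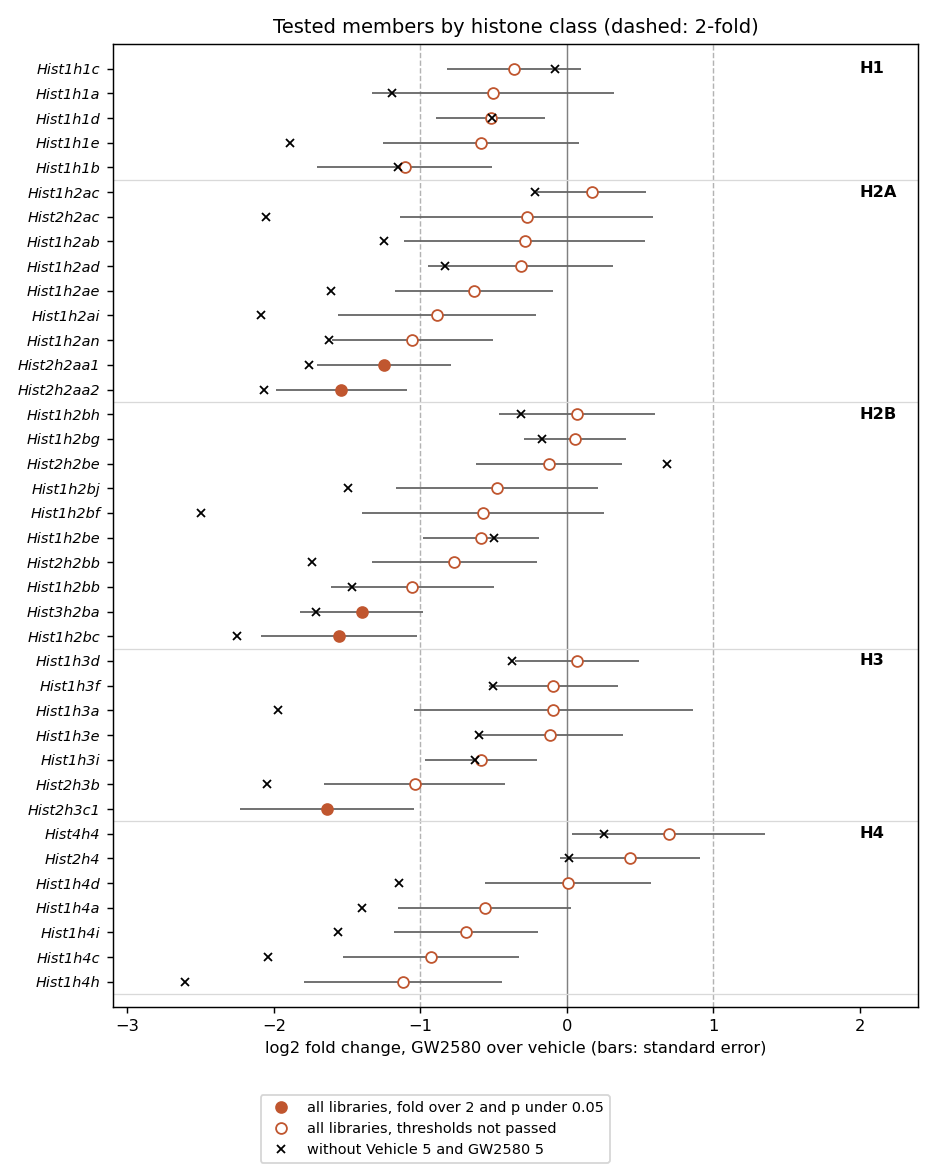
Log2 fold change of the 38 tested members, GW2580 over vehicle, by class, with the standard error as bars. Filled circles passed a 2-fold change and an unadjusted p under 0.05, open circles did not, and crosses give the estimate without Vehicle 5 and GW2580 5, which lies lower for most members and higher for Hist2h2be.

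Among the H2A genes, the near-identical copies Hist2h2aa2 and Hist2h2aa1 fell. Hist2h2aa2 (NCBI gene 319192, chromosome 3 from 96239779 to 96240374, a single exon) was at 6.86, 5.39, 9.69, 10.9 and 3.71 CPM in the vehicle libraries and at 0.822, 2.83, 3.22, 1.51 and 4.198 CPM in the GW2580 libraries. Its vehicle and GW2580 libraries overlapped at Vehicle 5 and GW2580 5 only. It fell by 1.54 ± 0.45 on the log2 scale (p = 0.00387, adjusted p = 0.28, edgeR's quasi-likelihood test, Benjamini-Hochberg), with an exact permutation p of 0.0159 (two-sided, n = 5 each), where 0.00794 is the smallest possible. Hist2h2aa1 (NCBI gene 15267, chromosome 3 from 96245497 to 96246052, a single exon), its mirror copy, was at 5.27, 4.62, 10.2, 10.4 and 1.91 CPM in the vehicle libraries and at 1.69, 2.50, 3.72, 1.66 and 4.06 CPM in the GW2580 libraries. Vehicle 3 and 4 were the highest, and Vehicle 5 lay among the GW2580 libraries. It fell by 1.25 ± 0.46 (p = 0.0163, adjusted p = 0.28, edgeR, exact permutation p = 0.0714), and missed the p threshold without Vehicle 3 (p = 0.0504) or without Vehicle 4 (p = 0.0515). Every stretch of 150 bases in the GENCODE transcript of Hist2h2aa2 recurs in Hist2h2aa1 or another transcript, so that the split of unique fragments between the copies is uncertain.

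The most abundant H2A gene by CPM, Hist1h2ae, was at 16.1, 10.5, 19.96, 17.7 and 4.55 CPM in the vehicle libraries and at 3.80, 9.16, 6.83, 2.65 and 21.9 CPM in the GW2580 libraries. GW2580 5 was the highest of all and Vehicle 5 lay among the other GW2580 libraries. Its fold change of -0.64 ± 0.54 did not pass (exact permutation p = 0.214, edgeR adjusted p = 0.585). Hist1h2ac, the one H2A gene that was higher, was at 3.74 ± 1.07 CPM under vehicle and 4.21 ± 1.78 CPM under GW2580, a fold change of 0.17 ± 0.37 (exact permutation p = 0.778, edgeR adjusted p = 0.852). Of the 9 H2A genes tested, 8 were lower and 1 higher, with a median of -0.64.

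Among the H2B genes, Hist1h2bc and Hist3h2ba fell. Hist1h2bc (NCBI gene 68024, chromosome 13 from 23684199 to 23692480), one of 5 members counted over several exons, was at 111, 177, 108, 72.9 and 147 CPM in the vehicle libraries and at 17.0, 42.3, 35.9, 10.6 and 104 CPM in the GW2580 libraries. The GW2580 libraries other than GW2580 5 lay below every vehicle library. It fell by 1.56 ± 0.53 (p = 0.011, adjusted p = 0.28, edgeR), with an exact permutation p of 0.0159. Hist3h2ba (NCBI gene 78303, chromosome 11 from 58948911 to 58949372, a single exon), the member of the small Hist3 cluster with counts, was at 2.89, 4.55, 2.26, 1.89 and 2.58 CPM in the vehicle libraries and at 0.565, 1.19, 1.5002, 0.568 and 1.56 CPM in the GW2580 libraries. All 5 GW2580 libraries lay below all 5 vehicle libraries, which held for 0.985% of all genes tested and for no other member tested. It fell by 1.40 ± 0.42 (p = 0.00504, adjusted p = 0.28, edgeR), and its exact permutation p was 0.00794, the smallest possible. All 5 GW2580 libraries above all vehicle libraries was seen for 0 members and 2.04% of all genes.

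Hist1h2bg was at 12.4 ± 3.85 CPM under vehicle and 12.9 ± 6.23 CPM under GW2580, with a fold change of 0.06 ± 0.35 (exact permutation p = 0.992, edgeR adjusted p = 0.952), the smallest change among the abundant H2B genes. Hist1h2be, whose counted exons hold a further 1861 bases downstream of its hairpin, was at 9.22 ± 5.03 CPM under vehicle and 6.15 ± 2.601 CPM under GW2580, a fold change of -0.59 ± 0.40 (exact permutation p = 0.23, edgeR adjusted p = 0.493). Of 10 H2B genes tested, 8 were lower and 2 higher, with a median of -0.58.

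Hist2h3c1 (NCBI gene 15077, chromosome 3 from 96246685 to 96247348, a single exon) was the H3 gene that fell, with 1 library far from the rest. It was at 1.44, 0.980, 1.59, 0.632 and 5.73 CPM in the vehicle libraries and at 0.616, 0.659, 1.06, 0.331 and 0.677 CPM in the GW2580 libraries. Vehicle 5 stood far above the other libraries, and the remaining vehicle libraries overlapped the GW2580 libraries. It fell by 1.64 ± 0.60 (p = 0.0156, adjusted p = 0.28, edgeR), its exact permutation p was 0.0635, and without Vehicle 5, Vehicle 1 or Vehicle 3 it no longer passed the filter and was not tested. Its mirror copy Hist2h3c2, which failed the filter, showed the same library at 7.53 CPM against 0.418 to 1.26 CPM in the other vehicle libraries. All windows of 150 bases in the transcripts of Hist2h3c1 are also held by a transcript under another gene name, Hist2h3c2, Hist2h3b or Gm20634. The positions of these transcripts were not compared, so one that overlaps at the same place would count too.

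The group means of the abundant H3 genes lay within the spread of their libraries. Hist1h3e was at 13.7 ± 8.15 CPM under vehicle and 12.7 ± 6.57 CPM under GW2580 (-0.11 ± 0.50, exact permutation p = 0.929, edgeR adjusted p = 0.931) and Hist1h3f at 6.51 ± 3.60 CPM under vehicle and 6.10 ± 2.87 CPM under GW2580 (-0.09 ± 0.44, exact permutation p = 0.881, edgeR adjusted p = 0.937). Hist1h3d was at 4.00 ± 1.49 CPM under vehicle and 4.196 ± 2.24 CPM under GW2580 (0.07 ± 0.42, exact permutation p = 0.968, edgeR adjusted p = 0.949). Hist1h3a was at 8.30, 4.34, 11.5, 7.52 and 0 CPM in the vehicle libraries and at 1.34, 3.03, 3.39, 0.899 and 21.1 CPM in the GW2580 libraries. Its extremes were GW2580 5 at the top and Vehicle 5 at 0 counts, and among the other libraries the 4 vehicle values lay above the 4 GW2580 values, while the fold change over all 10 was -0.09 ± 0.95 (exact permutation p = 0.992, edgeR adjusted p = 0.972). With library sizes alone and no TMM factor the sign of Hist1h3f and Hist1h3a turned positive, at 0.01 and 0.06. Of 7 H3 genes tested, 6 were lower and 1 higher, with a median of -0.11.

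**Figure D3:**
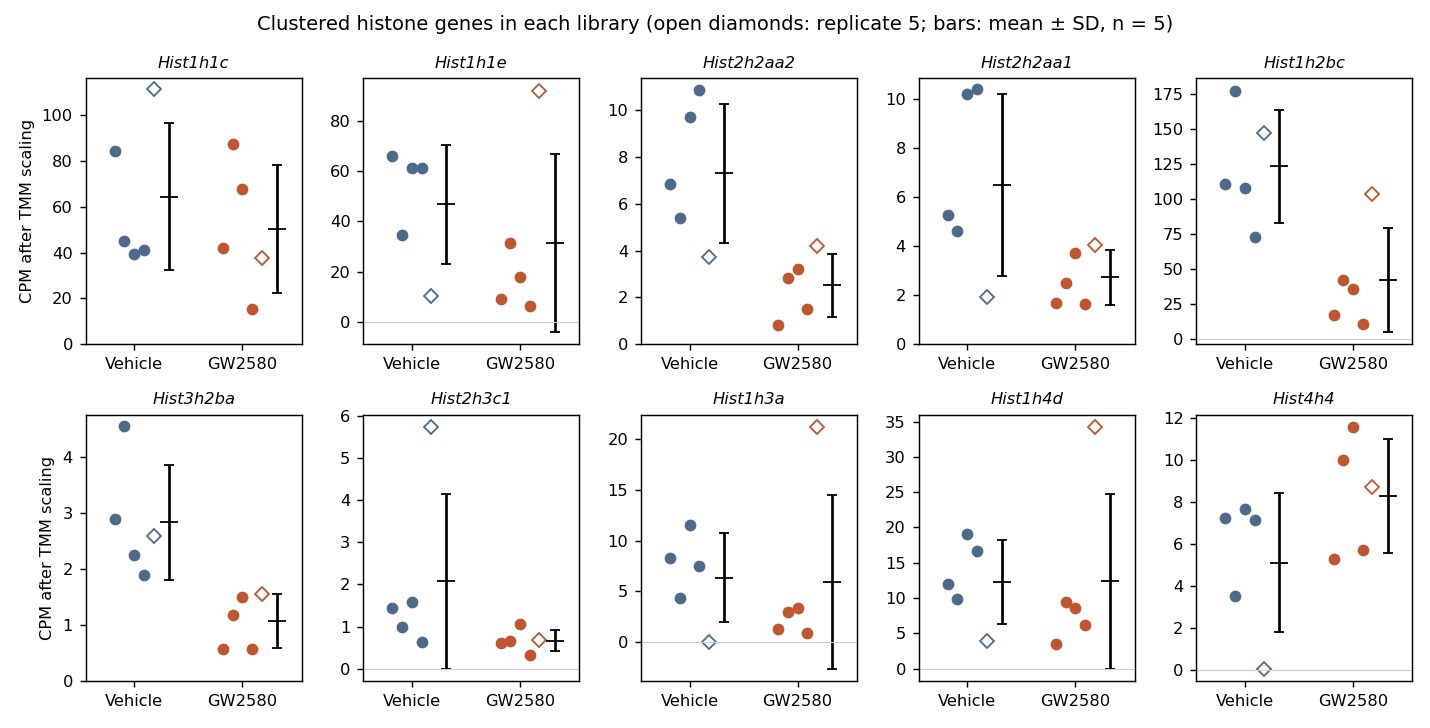
CPM of 10 members in each library, with vehicle in blue and GW2580 in orange, replicate 5 of each group as an open diamond, and mean ± SD (n = 5) as black bars. Replicate 5 is the highest GW2580 library for Hist1h1e, Hist1h2bc, Hist1h3a, Hist1h4d, Hist2h2aa2, Hist2h2aa1 and Hist3h2ba and the lowest vehicle library for Hist1h1e, Hist2h2aa2, Hist2h2aa1, Hist1h3a, Hist1h4d and Hist4h4.

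Of the H4 genes, 0 passed the thresholds. Hist4h4 (NCBI gene 320332, chromosome 6 from 136803993 to 136804431, a single exon), the lone gene of the Hist4 cluster, was at 7.22, 3.50, 7.69, 7.12 and 0.0562 CPM in the vehicle libraries and at 5.29, 10.02, 11.6, 5.73 and 8.73 CPM in the GW2580 libraries. Vehicle 5, with 1 count, was far below the rest, and the other libraries overlapped. Its fold change of 0.69 ± 0.66 was the highest of all members (exact permutation p = 0.167, edgeR adjusted p = 0.63), and it was 0.26 without Vehicle 5 and GW2580 5. Hist1h4h was at 4.11, 4.97, 4.18, 4.08 and 3.60 CPM in the vehicle libraries and at 0.359, 1.45, 1.00, 0.284 and 6.64 CPM in the GW2580 libraries. Its vehicle libraries were nearly level, 4 of the GW2580 libraries lay below them, and GW2580 5 lay above. Its fold change was -1.12 ± 0.68 (exact permutation p = 0.0476, edgeR adjusted p = 0.444). Hist1h4d, the most abundant H4 gene, was at 11.9, 9.80, 19.1, 16.7 and 3.93 CPM in the vehicle libraries and at 3.49, 9.42, 8.61, 6.15 and 34.2 CPM in the GW2580 libraries, a fold change of 0.01 ± 0.56 (exact permutation p = 0.714, edgeR adjusted p = 0.996), whose sign turned with the scaling by size factors (-0.04). Of 7 H4 genes tested, 4 were lower and 3 higher, with a median of -0.56.

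Of the linker histone genes, 5 were tested, all 5 were lower and 0 passed. Hist1h1c was at 84.2, 45.1, 39.5, 41.1 and 111 CPM in the vehicle libraries and at 41.9, 87.3, 67.9, 15.5 and 37.8 CPM in the GW2580 libraries. Its groups overlapped throughout, with Vehicle 5 the highest and GW2580 4 the lowest, and the fold change was -0.36 ± 0.46 (exact permutation p = 0.421, edgeR adjusted p = 0.727). Hist1h1e (NCBI gene 50709, chromosome 13 from 23621777 to 23622558, a single exon) was at 66.2, 34.6, 61.4, 61.4 and 10.4 CPM in the vehicle libraries and at 8.88, 31.2, 17.7, 6.30 and 92.2 CPM in the GW2580 libraries. GW2580 5 was the highest of all libraries and Vehicle 5 was among the lowest, and the fold change was -0.58 ± 0.67 (exact permutation p = 0.27, edgeR adjusted p = 0.696). Vehicle 5 was thus the highest vehicle library for 1 of these linker genes and the lowest for the other. Hist1h1d was at 4.46 ± 1.49 CPM under vehicle and 3.11 ± 1.31 CPM under GW2580 (-0.52 ± 0.37, exact permutation p = 0.183, edgeR adjusted p = 0.516). Hist1h1b had the smallest p of the class, at 4.26 ± 1.80 CPM under vehicle and 1.99 ± 2.34 CPM under GW2580 (-1.11 ± 0.60, exact permutation p = 0.0397, edgeR adjusted p = 0.393). GW2580 2 was its highest GW2580 library, and it passed the thresholds without that library (-2.16), with sex (-1.39) or the replicate number (-1.61) as a term, and in limma-trend (-1.50).

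The head-to-head pairs allow genes that start from the same short interval to be set side by side, and 4 pairs had both members tested. The ratio of the partners in each library, on the log2 scale, was compared between the groups, a comparison chosen after the values were seen. For Hist1h2bc over Hist1h2ac the log2 ratio was 4.61, 5.61, 4.47, 4.14 and 6.10 with vehicle and 2.62, 3.18, 2.53, 2.28 and 4.18 with GW2580. Only Vehicle 4 (4.14) lay below a GW2580 library, GW2580 5 (4.18). The difference of the mean log2 ratios, GW2580 minus vehicle, was -2.03, for which the exact permutation p, two-sided, was 0.0159 and 0.0635 after adjustment over the 4 pairs, and it was -2.06 without Vehicle 5 and GW2580 5. For Hist1h2bg over Hist1h2ae the log2 ratio was -0.49, -0.12, -0.13, -0.34 and 0.92 with vehicle and 1.21, 0.17, 1.76, 1.6 and -0.71 with GW2580, a difference of 0.84 (exact permutation p = 0.135, adjusted 0.27). The differences for Hist1h2ad over Hist1h2bf and Hist2h2be over Hist2h2ac were 0.98 and 0.68 (exact permutation p = 0.206 and 0.667). Without Vehicle 5 and GW2580 5 the differences of these other pairs were 1.46, 1.42 and 2.67, so that they moved with the 2 libraries by more than that of Hist1h2bc over Hist1h2ac did. None of the 4 passed after adjustment.

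**Figure D4:**
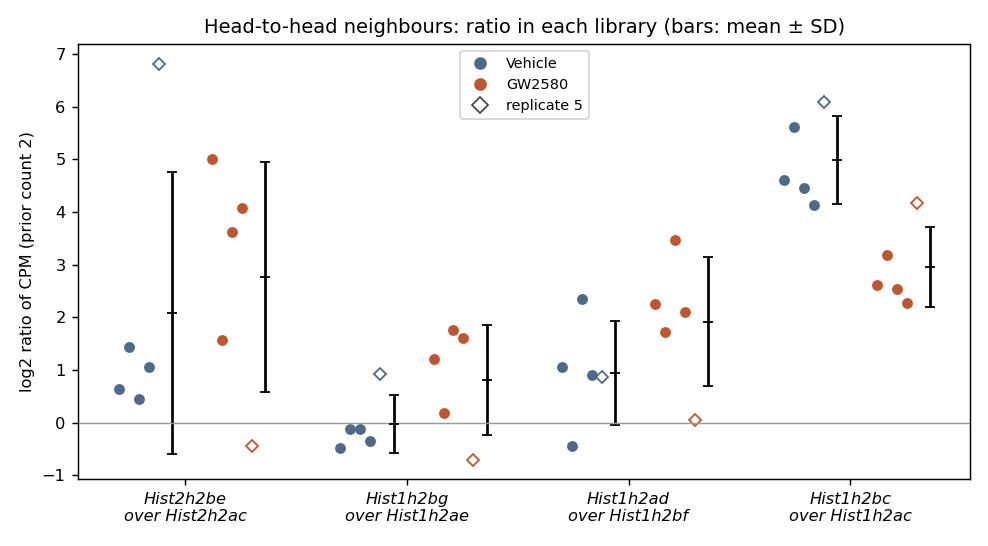
Log2 ratio of CPM (prior count of 2) between the partners of 4 head-to-head pairs in each library, vehicle in blue, GW2580 in orange, replicate 5 as open diamonds and mean ± SD (n = 5) as bars. The ratio of Hist1h2bc to Hist1h2ac averaged 4.99 with vehicle and 2.96 with GW2580, while the other pairs overlapped widely.

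The count of members past the thresholds moved most with replicate 5 of each group. GW2580 5 was the highest GW2580 library for 22 of the 38 members tested (57.9%), against 29.5% of all genes, and Vehicle 5 was the lowest vehicle library for 28 (73.7%), against 40.4% of all genes. Vehicle 5 was the highest vehicle library for 7 members (18.4%), against 36.9% of all genes. GW2580 4 was the lowest GW2580 library for 23 members (60.5%), against 24.0% of all genes. Without GW2580 5 alone, 16 members passed the thresholds, all lower, where 13.2% of all genes were lower. Without Vehicle 5 alone 8 did, where 6.74% were, without Vehicle 3 alone 3 did, where 7.54% were, and without GW2580 2 alone 6 did, where 5.82% were. Leaving out any other single library gave 4 or 5. Over the 10 libraries the mean log2 level of the members had a Pearson r of 0.89 and a Spearman rho of 0.89 with the first principal component of the other genes, as a description of libraries that share their depth and composition.

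With both libraries left out, 34 of 37 members tested were lower, with a median log2 fold change of -1.40 against -0.04 over all genes, and 21 members were lower past the thresholds where 15.2% of all genes were, while 0 were higher where 7.08% were. An adjusted p under 0.05 was reached by 17 members and by 17.8% of all genes, which describes these 8 libraries only. The fold change of Hist1h1e became -1.89, that of Hist1h3a -1.97, that of Hist1h4h -2.60, that of Hist1h2ae -1.61 and that of Hist1h2bc -2.25. Hist1h1c (-0.08), Hist1h2bg (-0.17) and Hist1h2ac (-0.22) were nearer 0, and Hist2h2be was at 0.68. Fitted on every gene with a count, 33 of 66 members were lower past the thresholds where 16.8% of all genes were, and 0 were higher where 8.16% were. The summed level was then 415 ± 39.0 CPM under vehicle and 203 ± 96.5 CPM under GW2580 (SD, n = 4 each), and with scaling factors computed on these 8 libraries the log2 difference was -1.25.

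The libraries also differed in the share of uniquely aligned fragments that lay on no annotated exon, which the members were set against. This share was 59.2%, 52.0%, 57.5%, 59.8% and 47.7% with vehicle and 68.0%, 56.1%, 47.1%, 70.8% and 64.7% with GW2580. The groups overlapped, and the means of 55.2 ± 5.21% and 61.3 ± 9.68% differed by less than their spread (exact permutation p = 0.246, two-sided, n = 5 each). Over the 10 libraries the log2 summed member level had a Pearson r of -0.57 and a Spearman rho of -0.18 with this share, given as a description since the points share library depth and composition. Without GW2580 3 and 4, the libraries farthest from the median share, r was -0.46, and after the group means were subtracted it was -0.45. Within the groups r was 0.27 with vehicle and -0.53 with GW2580. The value was of opposite sign in the groups, and the mean log2 level of the members had r at -0.23 over all libraries, 0.81 within vehicle and -0.39 within GW2580. By class, the H2B sum had r at -0.63 over all libraries, -0.85 within vehicle and -0.46 within GW2580. The H2A and H4 sums had r at -0.19 and -0.01 over all libraries and at 0.92 and 0.90 within vehicle, opposite in sign to H2B. Hist1h2bc had r at -0.59, Hist1h1c -0.74, Hist1h1e -0.10 and Hist4h4 0.38, and the 66 members ranged from -0.74 to 0.54 with a median of -0.11. The TMM factors, by which library sizes were multiplied, ran from 0.691 in GW2580 3 to 1.61 in GW2580 4. These libraries also had the lowest and the highest share. A larger factor lowers each level, and the part of the factors in the values of r with this share was not tested.

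**Figure D5:**
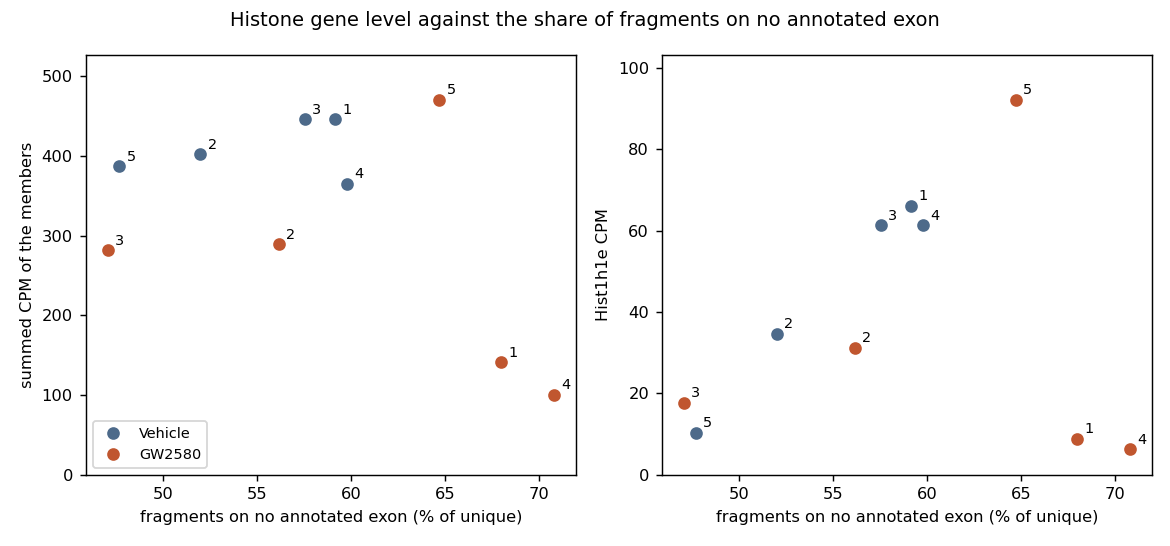
Summed CPM of the members (left) and CPM of Hist1h1e (right) against the share of fragments outside annotated exons (percent), 1 point per library with its replicate number. GW2580 1 and 4, at 68.0% and 70.8%, had the lowest sums, while GW2580 5, at 64.7%, had the highest.

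With this share as a term of the edgeR fit, 3 members were lower past the thresholds where 2.86% of all genes were, and 0 were higher where 3.23% were. The median of the members was -0.55, against -0.57 without the term, and 31 of 38 were again lower. Hist1h2bc (-1.29) and Hist2h3c1 (-0.94) no longer passed. With the glial and neuronal marker level as a term, 8 members were lower past the thresholds, where 3.47% of all genes were. Single-exon structure is shared with many genes outside the clusters. Of 2011 other single-exon protein-coding genes with a count, 612 were tested, of which 342 were higher and 270 lower, with a median of 0.15. Past the thresholds, 92 were higher and 47 lower (15.03% and 7.68%), where 4.01% and 6.7% of all genes were. Fitted on every gene with a count, 870 of the 2011 were higher and 1141 lower, with a median of -0.20 against -0.12 over all genes. The direction of their median thus depended on the filter.

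The genes that make and process histone messengers were given by lists. Of 15 genes for transcription, processing and decay of these messengers, 11 were higher and 4 lower, with a median of 0.18. Past the thresholds, 1 was lower (6.67%), near the 6.7% of all genes, and 0 were higher, where 4.01% were. That gene, Lsm10, which codes for a part of the U7 particle that cuts the messenger after the hairpin, was named after its values were seen and fell by 1.35 ± 0.57 (exact permutation p = 0.135, edgeR adjusted p = 0.305). Slbp was at 113, 137, 114, 111 and 115 CPM in the vehicle libraries and at 87.0, 139, 171, 50.2 and 86.9 CPM in the GW2580 libraries. Its groups overlapped, and the fold change was -0.14 ± 0.35 (exact permutation p = 0.429, edgeR adjusted p = 0.865). Npat, the activator that gathers on the histone clusters in S phase, was at 16.7 ± 5.71 CPM under vehicle and 25.2 ± 8.38 CPM under GW2580 (0.59 ± 0.33, exact permutation p = 0.0952, edgeR adjusted p = 0.4), and Cpsf3, the nuclease that makes the cut, at 106 ± 41.4 CPM under vehicle and 116 ± 52.9 CPM under GW2580 (0.13 ± 0.37, exact permutation p = 0.714, edgeR adjusted p = 0.885).

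The replication-independent histone genes, which code for variants made outside S phase, lay on the same side as the members. All 11 tested were lower, with a median of -0.83. Of these, 3 passed (27.3%), where 6.7% of all genes were lower past the thresholds, and all 3 were named after their values were seen. H2afz, which codes for the variant H2A.Z, was at 169 ± 54.5 CPM under vehicle and 84.0 ± 42.8 CPM under GW2580 (-1.01 ± 0.43, exact permutation p = 0.0476, edgeR adjusted p = 0.31), and H2afv, its close relative, at 101 ± 35.1 CPM under vehicle and 45.8 ± 32.6 CPM under GW2580 (-1.14 ± 0.48, exact permutation p = 0.0556, edgeR adjusted p = 0.305). H2afy2, a macroH2A gene, was at 20.4 CPM in Vehicle 5 and 3.27 to 5.67 CPM in the other vehicle libraries, with means of 7.37 ± 7.37 CPM under vehicle and 3.43 ± 1.16 CPM under GW2580 (-1.11 ± 0.51, exact permutation p = 0.175, edgeR adjusted p = 0.337). Without Vehicle 5 and GW2580 5 the fold change of H2afy2 was -0.22, that of H2afz -1.34 and that of H2afv -1.83. H3f3a was at 460.03 ± 78.2 CPM under vehicle and 234 ± 121 CPM under GW2580 (-0.98 ± 0.42, exact permutation p = 0.0159, edgeR adjusted p = 0.309), which passed the p threshold and fell short of a 2-fold change. H3f3b was at 4983 ± 1671 CPM under vehicle and 3801 ± 1585 CPM under GW2580 (-0.39 ± 0.48, exact permutation p = 0.341, edgeR adjusted p = 0.721). With the share on no annotated exon as a term, 9 of the 11 were lower and 0 passed. The mean log2 level of this list had an r of -0.73 with that share.

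Of the histone chaperones, which carry histones to DNA, 9 of 11 tested were lower with a median of -0.24. Past the thresholds 0 were lower, where 6.7% of all genes were, and 0 higher, where 4.01% were. With the share on no annotated exon as a term the direction turned, with 7 higher, 4 lower and a median of 0.09. Nap1l4 was at 116 ± 57.5 CPM under vehicle and 126 ± 59.0 CPM under GW2580 (0.12 ± 0.40) and Rbbp7 at 97.5 ± 45.3 CPM under vehicle and 90.5 ± 40.6 CPM under GW2580 (-0.11 ± 0.38), which turned to 0.05 with library sizes alone. Of 28 tested genes of S phase and proliferation, 18 were lower and 10 higher, with a median of -0.16. In either direction 0 passed, against the same shares of all genes. With the share on no annotated exon as a term, 15 were higher and 13 lower, with a median of 0.05. Then 1 passed (3.57%), where 3.23% of all genes were higher past the thresholds. It was Mcm3, which was higher by 1.06. Pcna, the sliding clamp of the replication fork, was at 100.2 ± 16.1 CPM under vehicle and 89.6 ± 35.2 CPM under GW2580 (-0.16 ± 0.35, exact permutation p = 0.556, edgeR adjusted p = 0.848) and Mki67, a marker of dividing cells, at 14.98 ± 13.9 CPM under vehicle and 16.1 ± 5.33 CPM under GW2580 (0.10 ± 0.49, exact permutation p = 0.476, edgeR adjusted p = 0.938). Mcm3, part of the replicative helicase, was at 32.1 ± 8.31 CPM under vehicle and 56.7 ± 32.0 CPM under GW2580 (0.82 ± 0.38, exact permutation p = 0.119, edgeR adjusted p = 0.338). Without Vehicle 5 and GW2580 5 the median of this list was 0.04, and that of the members was -1.40. Of the list, 3 genes (Mcm3, and Mcm6 and Rrm1, which were named after their values were seen) were higher past the thresholds and 0 lower. These 3 make up 10.7% of the genes tested from the list, where 7.08% of all genes were higher and 15.2% lower. The 2 libraries were left out after their values were seen, so these counts are a description only. The treatment effect on the members was also compared between the sexes by edgeR's quasi-likelihood test, with 2 males and 3 females per group. An unadjusted p under 0.05 for that difference was reached by 0 of the 38 tested members and by 717 of all 28419 genes. The smallest adjusted p of a member in this test was 0.9999. With so low a share over all genes, a count of 0 does not set the members apart. It also does not show that the sexes responded alike.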

How the data were processed

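Brain cells selected for CD11b were sequenced as paired reads after cDNA was made with a kit that primes on poly(A) tails (SMART-Seq v4), 1 library per mouse. Per the file headers and the study's methods, the authors trimmed the reads, aligned them with STAR to GRCm38 and deposited raw counts of uniquely aligned fragments per gene, made with featureCounts 1.6.3 on RefSeq exons without regard to strand, together with exon lengths and the number of fragments on no annotated exon. Unique alignment leaves out fragments that fit 2 near-identical copies. Of the 66 members, 52 share at least 1 stretch of 150 bases with another gene's transcript, where transcripts that overlap at the same place also count. Counted exons overlapped those of another gene for 0 of the members. The depth of 12550418 to 26079343 assigned fragments limits the precision of the low members.

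Counts were scaled by TMM, genes over 1 CPM in at least 3 libraries were kept, and GW2580 was compared with vehicle by edgeR's quasi-likelihood test (edgeR 4.0.16, R 4.3.3) on all 28419 such genes, with Benjamini-Hochberg adjustment over all of them. The thresholds for a call were a difference of more than 2-fold with an unadjusted p below 0.05. Log2 levels use a prior count of 2. Single values were compared by two-sided exact permutation tests over the 252 divisions of the libraries. On counts simulated for this comparison (27198 genes tested), an unadjusted p under 0.05 was reached by 98% of genes lowered by 2 on the log2 scale, 56% of those lowered by 1 and 4.39% of unchanged genes. The changed genes were drawn from all genes with a mean over 1 CPM. Each gene varied independently, so libraries that deviate over many genes were not simulated. These shares were not measured for the members, many of which are lower. The alternatives were other scaling (size factors, upper quartile, library size alone), other filters, sex, replicate number, the share of fragments on no annotated exon or the glial and neuronal marker level as a term, counts thinned to the smallest library, DESeq2 1.42.0, limma-trend (limma 3.58.1), and leaving out libraries. Leaving out Vehicle 5 and GW2580 5 together, the fits without a filter that go with it or with the share as a term, the class and hairpin sums without Hist1h2bc, and the ratios of head-to-head partners were added after the data were seen.

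The members and gene lists were chosen with earlier results of these data known. The genes named are, per class, the 3 of highest mean CPM and the higher and the lower gene of smallest p, then the members of the Hist3 and Hist4 clusters, the 2 most abundant genes of each context list, and Slbp, Npat, Mki67 and Pcna. Other genes were named after their values were seen. The labels and methods do not say that the mice were handled in separate batches, and p-values measure the spread between these mice.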

Additional observations from a re-analysis of the deposited data

Results flagged for a closer look

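In groups of 5 libraries, a library was singled out where its gap to the nearest other library was most of the group's whole range. Of 84 groups examined, 12 held such a library. The cut singles one out in about 1 of 20 groups of independent, normally spread values. The groups here are CPM values from the same 10 libraries, so that rate need not hold, and an excess over chance was not tested. Vehicle 5 was that library in 7 of the 12, GW2580 5 in 3, GW2580 2 in 1 and Vehicle 2 in 1.

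Among the members, GW2580 5 was far above the other GW2580 libraries for 3 genes. It held 21.1 CPM of Hist1h3a where the next held 3.39 CPM, 34.2 CPM of Hist1h4d where the next held 9.42 CPM, and 6.64 CPM of Hist1h4h where the next held 1.45 CPM. Vehicle 5 held 5.73 CPM of Hist2h3c1 where the next vehicle library held 1.59 CPM. GW2580 2 held 6.13 CPM of the linker gene Hist1h1b where the next held 1.34 CPM.

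Among the other genes, Vehicle 5 was the lowest vehicle library for the replacement histone gene H3f3b, at 2006 CPM against 5509.5 CPM in the next. It was the highest vehicle library for Cpsf3 at 179.6 CPM (next 91.9 CPM), Nap1l4 at 218 CPM (next 104 CPM), Rbbp7 at 177 CPM (next 88.3 CPM), Npat at 26.7 CPM (next 15.6 CPM) and Mki67 at 39.5 CPM (next 13.1 CPM). Vehicle 2 held 137 CPM of Slbp where the next held 115 CPM. Vehicle 2 and Vehicle 5 also held the most oligodendrocyte marker RNA, 15108 and 3147 CPM, and the part of that RNA in these values was not tested.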

How the results depend on the processing

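The count of 5 members lower with GW2580 became 8 with no filter on low counts, 8 with the glial and neuronal marker level as a term, 8 without Vehicle 2 and Vehicle 5 (3.42% of all genes), 8 with limma-trend and 3 with the share on no annotated exon as a term. It became 21 without Vehicle 5 and GW2580 5, 33 without them and without a filter, and 0 at an adjusted p under 0.05. With 1 library left out at a time it ranged from 3 to 16. Members higher past the thresholds numbered 0 under each alternative run. Where the setting did not change which genes or libraries were used, the cause was not tested. The summed level kept its direction under each alternative, from -1.22 to -0.58 with 1 library left out at a time.

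With the replicate number as a block, 7 members were lower and 0 higher, where 5.27% and 3.71% of all genes were. The labels do not say that equal numbers mark shared litters or days, and the deviations of equally numbered libraries correlated at -0.05, 0.39, 0.09, -0.44 and -0.57, so the numbers were not taken to pair the mice.

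Small fold changes turned sign. Hist1h4d turned from 0.01 to -0.037 with DESeq2's size factors, -0.015 with no filter, -0.12 with sex, -0.45 with the replicate block, -0.18 with the share on no annotated exon, -0.31 with the marker level, -0.020 with thinned counts, -0.37 without Vehicle 2 and Vehicle 5, -0.036 with DESeq2, -0.25 with limma-trend and -1.15 without Vehicle 5 and GW2580 5. Hist1h3d turned to -0.033 with the block, -0.20 with the marker level, -0.039 with thinned counts, -0.22 without Vehicle 2 and Vehicle 5, -0.018 with limma-trend and -0.38 without Vehicle 5 and GW2580 5. In the order block, marker level, without Vehicle 2 and Vehicle 5, limma-trend, without Vehicle 5 and GW2580 5, Hist1h2bg turned to -0.0034, -0.15, -0.19, -0.0044 and -0.17. Hist1h2ac turned to -0.048 with the marker level, -0.076 without Vehicle 2 and Vehicle 5 and -0.22 without Vehicle 5 and GW2580 5. With library sizes alone, Hist1h3f turned to 0.0053, Hist1h3a to 0.065 and Rbbp7 to 0.053. Rbbp7 also turned to 0.010 with upper-quartile scaling, 0.28 with the share on no annotated exon, 0.093 with the marker level, 0.28 without Vehicle 2 and Vehicle 5 and 0.25 without Vehicle 5 and GW2580 5. Slbp turned to 0.065 with the share on no annotated exon.

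With 1 library left out at a time, the log2 fold change ranged from -0.045 to 0.35 for Hist1h2ac, -0.27 to 0.23 for Hist1h2bg, -0.36 to 0.22 for Hist1h3e, -0.31 to 0.26 for Hist1h3f, -1.64 to 0.24 for Hist1h3a, -0.19 to 0.26 for Hist1h3d, -0.91 to 0.25 for Hist1h4d, -0.38 to 0.042 for Slbp, -0.17 to 0.41 for Cpsf3, -0.19 to 0.47 for Nap1l4, -0.39 to 0.22 for Rbbp7, -0.31 to 0.040 for Pcna and -0.087 to 0.86 for Mki67. The Hist1h2bc over Hist1h2ac difference ranged from -2.33 to -1.75. Of 474 values of single genes, lists, sums and pairs under alternatives that kept each library or left out a pair, 411 kept direction and side of the threshold. Depth limited the 28 members under the filter, of which 4 had fewer than 10 counts in all.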
